A study of Mus musculus with 6 samples.

Results

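The transcripts of 6 natural killer (NK) receptor and adaptor genes were followed in single T cells of mouse melanomas. The members were *Klrd1*, *Klrc1*, *Klrk1*, *Klrb1c*, *Tyrobp* and *Fcer1g*, taken by name from the 14597 genes of the count table, and all 6 were found in at least 99 of the 12818 cells. TCRβ+ cells were sorted by FACS from tumors of the mouse melanoma line B16-F10, grown under the skin of *Foxp3*-EGFP-DTR animals. Their *Foxp3* gene drives EGFP together with the receptor for diphtheria toxin (DTx), so DTx removes cells that express *Foxp3*. According to the labels, 3 samples were from animals given PBS and 3 from animals given DTx, and all of them carried the same allele and the same tumor. The cells of the table carry a library number from 1 to 6 that no label links to a sample, so 0 cells could be placed in either group. The 6 libraries were therefore described as a single pool, and PBS was not compared with DTx.

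CD94, encoded by *Klrd1*, pairs with NKG2A, encoded by *Klrc1*, into an inhibitory receptor that reads the nonclassical MHC molecule Qa-1 and carries ITIM motifs in its NKG2A tail. NKG2D, encoded by *Klrk1*, is an activating receptor for stress-induced ligands that signals through DAP10, the product of *Hcst*, or through DAP12, the product of *Tyrobp*. *Klrb1c* encodes the NK1.1 antigen, which marks NK and NKT cells in C57BL/6 mice, and *Fcer1g* encodes the common Fc receptor γ chain, an adaptor that, like DAP12, carries an ITAM. Activated CD8+ T cells are known to take up several of these receptors, while the DAP12 and Fc receptor γ adaptors are best known from NK and myeloid cells.

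In the GENCODE annotation of GRCm38, the receptor genes were in the NK gene complex of chromosome 6. *Klrd1* spanned chr6:129591782-129598775 on the plus strand, *Klrk1* chr6:129610323-129623864 on the minus strand and *Klrc1* chr6:129666015-129678973 on the minus strand. These 3 genes lay within 87.2 kb, and *Klrb1c* (chr6:128778485-128789215, minus strand) was 802.6 kb from *Klrd1*. The adaptors were elsewhere, with *Fcer1g* at chr1:171229572-171234365 on the minus strand and *Tyrobp* at chr7:30413760-30417585 on the plus strand, 126 bases from *Hcst*. All 6 are protein-coding.

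Because several members were found in the same cells, the stretches upstream of their transcription starts are shown for the 4 members matched in the RefSeq promoter table (GRCm38.p6), up to 250 bases each and cut where an exon begins. They are written in the direction of the gene. Capitals mark TGTGGT, the core of a Runx motif, and AGGAAG, the core of an Ets motif, on either strand.
Klrc1, chr6:129678974-129679223, minus strand: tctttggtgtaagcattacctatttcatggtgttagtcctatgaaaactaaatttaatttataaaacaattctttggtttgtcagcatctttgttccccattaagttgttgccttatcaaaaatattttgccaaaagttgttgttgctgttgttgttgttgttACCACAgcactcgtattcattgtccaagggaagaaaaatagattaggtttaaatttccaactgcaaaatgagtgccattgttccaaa
Klrk1, chr6:129623865-129624114, minus strand: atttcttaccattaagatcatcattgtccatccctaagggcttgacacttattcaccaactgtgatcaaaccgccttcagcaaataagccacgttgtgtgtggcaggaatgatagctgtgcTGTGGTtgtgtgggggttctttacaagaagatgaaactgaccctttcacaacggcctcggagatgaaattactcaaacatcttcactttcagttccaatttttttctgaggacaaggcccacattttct
Klrb1c, chr6:128788642-128788886, minus strand: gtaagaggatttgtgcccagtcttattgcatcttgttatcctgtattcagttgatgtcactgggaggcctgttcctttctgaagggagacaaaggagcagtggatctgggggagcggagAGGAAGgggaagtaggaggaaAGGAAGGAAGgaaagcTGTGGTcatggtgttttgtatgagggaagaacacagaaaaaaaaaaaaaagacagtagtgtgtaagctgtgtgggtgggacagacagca
Fcer1g, chr1:171234366-171234599, minus strand: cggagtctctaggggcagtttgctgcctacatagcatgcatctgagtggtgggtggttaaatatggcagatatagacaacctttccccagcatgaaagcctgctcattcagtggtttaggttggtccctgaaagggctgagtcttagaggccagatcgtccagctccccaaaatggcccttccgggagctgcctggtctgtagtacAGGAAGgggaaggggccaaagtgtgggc
TGTGGT or its complement occurred once upstream of each of the 3 receptor genes, with its first base 87 bases (*Klrc1*, minus strand), 129 bases (*Klrk1*) and 89 bases (*Klrb1c*) from the start, and did not occur upstream of *Fcer1g*. It was present in 14.0% of 32841 promoter windows of 250 bases. AGGAAG occurred 3 times upstream of *Klrb1c*, where 2 of the matches overlapped, and 1 time upstream of *Fcer1g*, against a match in 29.5% of all windows. The T-box core TCACAC occurred in none of the 4 stretches and in 12.3% of all windows. The *Klrb1c* start of RefSeq lies inside the longer GENCODE gene. The matches describe letters only.

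Libraries held 1768 to 2640 cells each, with a median of 610 to 2499.5 UMIs per cell, and depth was highest in libraries 4 and 5 and lowest in library 3. CD8+ cells (*Cd8a* or *Cd8b1* UMI, no *Cd4* or *Foxp3* UMI) numbered 4497, CD4+ Tconv cells (*Cd4* UMI, no *Cd8a*, *Cd8b1* or *Foxp3* UMI) 1205 and Foxp3+ cells (*Foxp3* UMI, no *Cd8a* or *Cd8b1* UMI) 97. A further 163 cells had *Cd4* and *Cd8* UMIs, and 6838 cells (53.3%) had no UMI of the gating genes, which at this depth does not show that they lacked these transcripts. Because a share of cells with a UMI rises with depth, shares are also given with each cell thinned at random to 1000 UMIs and shallower cells left out, which kept 3735 CD8+, 910 CD4+ Tconv, 76 Foxp3+ and 3220 ungated cells. Intervals are exact 95% intervals, Clopper-Pearson for shares and Poisson for counts, except those of the ratios between gates described below. All intervals cover counting error only. Between libraries, 76 barcodes were shared, and 51 of the 152 cells with such a barcode had a UMI of a member.

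*Klrd1* transcripts were found in 3184 cells, of which 69.3% were CD8+. Among CD8+ cells, 49.0% [47.6–50.5] had a *Klrd1* UMI, against 10.5% [8.86–12.4] of CD4+ Tconv cells and 11.0% [10.3–11.8] of ungated cells. At 1000 UMIs these shares were 36.5% [35.0–38.1], 8.02% [6.34–9.98] and 11.4%. The CD8+ share was thus above both others at equal depth. Libraries 1 to 6 had *Klrd1* UMIs in 36.2%, 26.9%, 22.1%, 69.9%, 67.9% and 54.4% of their CD8+ cells, and at 1000 UMIs in 29.0%, 19.7%, 20.6%, 46.4%, 44.8% and 40.9%. Libraries 4 to 6 were above libraries 1 to 3 on both scales, without overlap. In CD4+ Tconv cells of the same libraries, the shares as deposited were 9.66%, 1.32%, 4.07%, 13.8%, 16.4% and 8.51%, below the CD8+ share in each library.

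*Klrc1*, the NKG2A partner of CD94, had UMIs in 34.8% [33.5–36.3] of CD8+ cells, 7.80% [6.35–9.46] of CD4+ Tconv cells and 5.66% [5.12–6.23] of ungated cells. At 1000 UMIs the shares were 24.0% [22.6–25.4], 5.60% [4.20–7.30] and 6.30%. The spread between libraries was wider than for *Klrd1*. CD8+ cells of libraries 1 to 6 had *Klrc1* UMIs in 14.8%, 2.71%, 13.2%, 61.1%, 60.3% and 41.4%, and at 1000 UMIs in 11.2%, 1.72%, 11.1%, 37.6%, 35.9% and 27.9%. Library 2 was thus lowest on both scales, while its median depth, 1064 UMIs, was close to that of library 1, 1065 UMIs. *Klrc1* made up 10.7% of the summed *Klrd1* and *Klrc1* UMIs of CD8+ cells in library 2, 29.2% in library 1 and 36.4% to 41.9% in the other four.

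*Klrk1*, encoding NKG2D, was found in 20.9% [19.7–22.1] of CD8+ cells, 3.90% [2.88–5.15] of CD4+ Tconv cells and 4.09% [3.64–4.59] of ungated cells. The shares at 1000 UMIs were 11.8% [10.8–12.9], 2.75% [1.79–4.03] and 3.88%. Over libraries 1 to 6, 8.36%, 1.02%, 7.71%, 41.5%, 33.1% and 24.2% of CD8+ cells had a *Klrk1* UMI, and 4.66%, 0.287%, 3.89%, 18.9%, 17.7% and 14.6% at 1000 UMIs. The libraries thus fell in the same order as for *Klrc1*, with library 2 lowest and libraries 4 to 6 highest. In ungated cells at 1000 UMIs, the *Klrk1* shares of libraries 1 and 3 were 6.58% and 6.19%, above the CD8+ values of these libraries but with overlapping intervals.

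*Klrb1c* was sparse, with UMIs in 129 cells, and 59 of these were CD8+ (1.31% [1.0–1.69] of CD8+ cells). Of CD4+ Tconv cells 3 had a UMI (0.249% [0.0514–0.726], and 0.110% without library 5), and of ungated cells 0.951% [0.734–1.21]. By library, 4, 0, 0, 16, 32 and 7 CD8+ cells held the transcript, so library 5 supplied more than any other, and without it the CD8+ share was 0.744%. At 1000 UMIs, 0.830% [0.565–1.18] of CD8+ and 0.994% [0.681–1.40] of ungated cells had a UMI.

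The adaptor genes had another distribution. *Tyrobp* was found in 99 cells, of which 57.6% were ungated and 34.3% CD8+, and *Fcer1g* in 238 cells, of which 74.8% were ungated and 22.7% CD8+. *Tyrobp* UMIs were present in 0.756% [0.524–1.05] of CD8+ cells, 0.249% of CD4+ Tconv cells (3 cells, and 0.110% without library 5) and 0.834% [0.632–1.08] of ungated cells. Of the CD8+ cells with *Tyrobp*, 2, 1, 1, 18, 5 and 7 were in libraries 1 to 6, and without library 4 the share was 0.436%. *Fcer1g* UMIs were present in 1.20% [0.903–1.56] of CD8+ cells, 0.332% [0.0905–0.848] of CD4+ Tconv cells (4 cells) and 2.60% [2.24–3.01] of ungated cells. In CD8+ cells, 5, 1, 5, 19, 14 and 10 cells of libraries 1 to 6 had an *Fcer1g* UMI. In ungated cells the shares were 4.32%, 0.573%, 3.33%, 3.85%, 2.96% and 1.21%, and at 1000 UMIs 5.26%, 0.569%, 5.75%, 2.01%, 1.81% and 1.62%. The ungated cells of libraries 1 and 3 thus had the highest *Fcer1g* shares at equal depth, whereas *Klrc1* and *Klrk1* in CD8+ cells were higher in libraries 4 to 6.

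**Figure D1:**
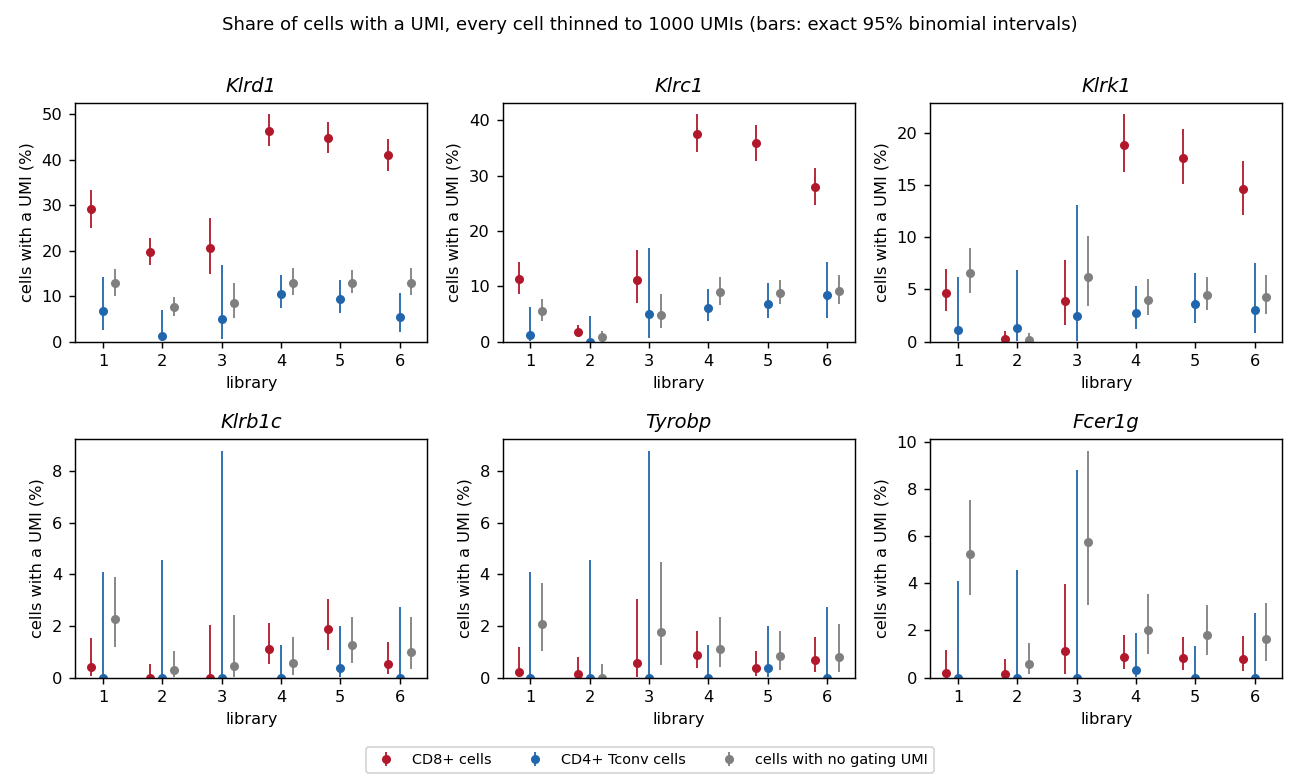
Share of cells with a UMI of each member (y axis, percent, own scale per panel) in libraries 1 to 6 (x axis), with every cell thinned to 1000 UMIs, for CD8+ cells, CD4+ Tconv cells and cells with no gating UMI. Points are shares and bars exact 95% binomial intervals. *Klrd1*, *Klrc1* and *Klrk1* were highest in CD8+ cells of libraries 4 to 6, while *Fcer1g* was highest in ungated cells of libraries 1 and 3, at 5.26% and 5.75%.

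Free RNA in droplets can give a UMI in a cell that does not express the gene, so shares were set beside cell types not known for the members. Among 491 cells with an *Il4*, *Il5* or *Il13* UMI and no *Cd8* or *Foxp3* UMI, with a median of 2274 UMIs against 1708 in CD8+ cells, *Klrd1* was found in 9 cells (1.83% [0.842–3.45]), *Klrc1* in 14 (2.85%), *Klrk1* in 8 (1.63%), *Klrb1c* in 2, *Tyrobp* in 1 and *Fcer1g* in 3. These cells were mostly in libraries 4 to 6, where CD8+ cells had the highest receptor shares. At 1000 UMIs, 0.909%, 0.227% and 0.455% of them had *Klrd1*, *Klrc1* and *Klrk1*, below the CD4+ Tconv shares of 8.02%, 5.60% and 2.75%. For the adaptors the 440 cytokine-gated cells set a wide interval. *Fcer1g* at 1000 UMIs was found in 0.643% [0.412–0.955] of CD8+ cells and in 0.682% [0.141–1.98] of the cytokine-gated cells, and *Tyrobp* in 0.482% [0.286–0.761] of CD8+ cells and in 0 of 440 cytokine-gated cells (exact upper limit 0.835%). A difference between CD8+ and cytokine-gated cells was thus not detectable at this depth for either adaptor. In ungated cells *Fcer1g* was at 2.39% [1.89–2.98] and *Tyrobp* at 0.963% [0.655–1.36]. Within libraries, *Klrc1* made up 29.2% of the *Klrd1* and *Klrc1* UMIs of CD8+ cells and 27.3% of those of ungated cells in library 1, 10.7% and 8.15% in library 2 and 37.2% [30.6–44.2] and 27.2% [21.5–33.4] in library 3. In libraries 4 to 6 the values were 41.9% and 41.1%, 41.6% and 40.2%, and 36.4% and 36.2%, so the gap was widest in library 3, where the intervals overlapped. The part of free RNA in the receptor UMIs of CD4+ Tconv and ungated cells was not tested.

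Naive-gated cells gave a second background. They had UMIs of at least 2 of *Ccr7*, *Lef1* and *Igfbp4* and none of *S100a4*, *S100a6*, *Nkg7* or *Ccl5*, and numbered 1127, with 0, 1 and 0 of them in libraries 4, 5 and 6. Of these cells 0 had a *Klrc1*, *Klrk1*, *Klrb1c* or *Fcer1g* UMI, with an exact upper limit of 0.327% for each share, and 1 had a *Tyrobp* UMI. *Klrd1* differed, with UMIs in 99 naive-gated cells (8.78% [7.20–10.6]). Split by lineage, 59 of 263 naive-gated cells with a *Cd8* UMI had *Klrd1* (22.4% [17.5–28.0]) against 1 of 79 with a *Cd4* UMI (1.27% [0.0320–6.85]). At 1000 UMIs the share in naive-gated *Cd8* cells was 16.8% [11.7–23.1] (31 of 184). The CD94 transcript was thus present in naive-gated *Cd8* cells without that of NKG2A. This gate excludes cells with *Nkg7* or *Ccl5*, genes that accompanied the members elsewhere.

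To compare lineages at equal depth, the number of CD8+ cells with each gene was divided by the number expected from CD4+ Tconv cells of the same library and the same of 5 depth bins. The interval of each ratio is the exact binomial interval of CD8+ against CD4+ Tconv cells with the gene, scaled to the expected number. The scaling uses 1 weight for all bins together, so the interval is approximate. All 6 members were at least 2-fold more often found in CD8+ cells, against 4.03% of 10322 genes present in at least 20 cells of both gates together. *Klrd1* was found in 2205 CD8+ cells against 427 expected, a ratio of 5.16 [4.31–6.22], and *Klrc1* in 1567 against 310, a ratio of 5.05 [4.10–6.28]. *Klrk1* was found in 939 against 153, a ratio of 6.15 [4.59–8.44]. For each of these 3 receptor genes the CD8+ share as deposited, not matched for depth, was above the CD4+ Tconv share in 6 of 6 libraries. The other members rested on 3 or 4 CD4+ Tconv cells. Their ratios were 7.82 [2.55–39.0] for *Klrb1c*, 3.47 [1.09–17.6] for *Tyrobp* and 3.94 [1.45–15.0] for *Fcer1g*. *Klrb1c* was at 11.9 without library 3, and *Tyrobp* ran from 2.27 without library 4 to 10.5 without library 5. The median gene of the table had a log2 ratio of -0.07.

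**Figure D2:**
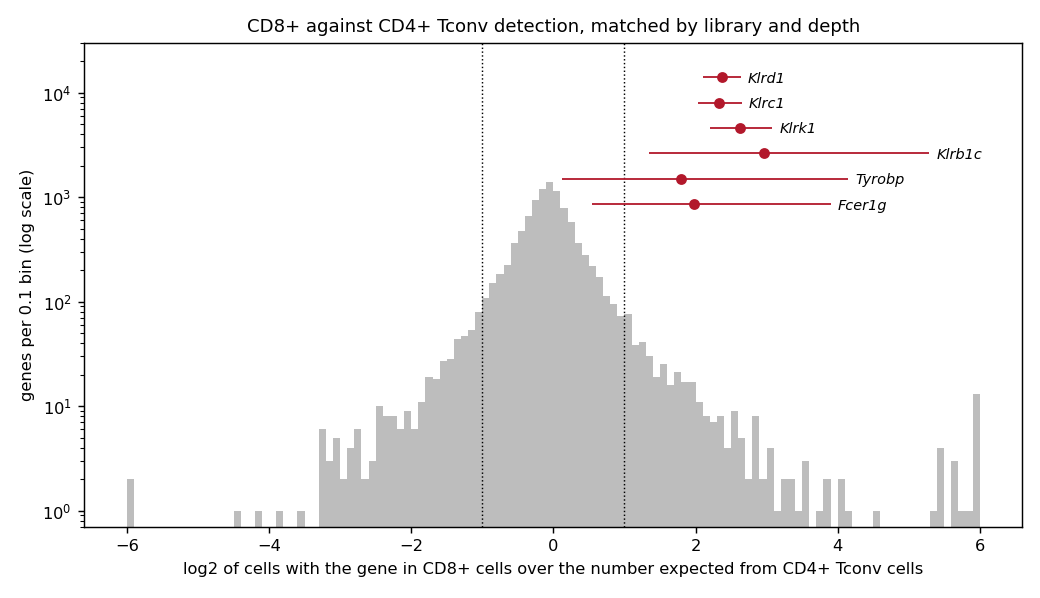
Log2 of the number of CD8+ cells with a gene over the number expected from CD4+ Tconv cells of the same library and depth (x axis). Gray bars count all 10322 genes (y axis, log scale, 0.5 added to both numbers, values beyond 6 in either direction put in the end bins), and red points show the 6 members with 95% intervals at arbitrary heights. Dotted lines mark 2-fold. All 6 members lay to the right of the 2-fold line, and the intervals of *Klrb1c*, *Tyrobp* and *Fcer1g* were the widest.

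Foxp3+ cells were too few for a firm reading. Of 97 cells, 6 had *Klrd1* (6.19% [2.30–13.0]), 4 *Klrc1*, 4 *Klrk1*, 0 *Klrb1c*, 1 *Tyrobp* and 1 *Fcer1g*. Matched to CD4+ Tconv cells by library and depth, the ratios were 0.805 [0.272–1.99] for *Klrd1*, 1.62 [0.377–5.48] for *Klrc1* and 1.43 [0.336–4.72] for *Klrk1*. Of these 3 testable members 0 were 2-fold higher or lower, against 4.72% and 4.98% of 4259 genes, and a 2-fold difference in either direction was within each interval or at its edge. Foxp3+ cells came almost wholly from libraries 1 to 3, and without library 1 the ratios were 1.29 for *Klrd1*, 0.994 for *Klrc1* and 0.00 for *Klrk1*.

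Matched in the same way against CD8+ cells, ungated cells had more of the adaptors and fewer of *Klrd1*, *Klrc1* and *Klrk1*. *Fcer1g* was found in 178 ungated cells against 37.1 expected, a ratio of 4.80 [3.52–6.63]. Its share as deposited, not matched for depth, was higher in 6 of 6 libraries. *Tyrobp* was found in 57 against 18.5, a ratio of 3.08 [1.98–4.86], with a share as deposited higher in 4 libraries and lower in 2. These were 2 of 6 members past 2-fold, against 3.59% of 10951 genes. *Klrd1* at 0.339 [0.311–0.368], *Klrc1* at 0.298 [0.266–0.333] and *Klrk1* at 0.375 [0.327–0.429] were more than 2-fold lower, against 2.81% of genes. Their shares as deposited, not matched for depth, were lower in 6 of 6 libraries. For *Klrk1* this did not hold on every scale, since library 1 had 0.676 summed UMIs per 10000 in ungated and 0.670 in CD8+ cells, and the shares of libraries 1 and 3 at 1000 UMIs were higher in ungated cells, as given above. *Klrb1c* lay between, at 1.41 [0.977–2.04]. Against CD4+ Tconv cells, ungated cells had ratios of 10.1 [3.88–37.5] for *Fcer1g*, 8.78 [2.86–43.8] for *Tyrobp* and 3.25 [1.06–16.2] for *Klrb1c*, past 2-fold for 3 of 6 members against 3.49% of 10284 genes. The corresponding values for *Klrd1*, *Klrc1* and *Klrk1* were 1.65 [1.37–2.01], 1.35 [1.08–1.71] and 1.36 [0.996–1.89].

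Members were found in the same cells. For each pair, the number of cells with UMIs of both was set against the number expected if the genes were detected independently within each library and depth bin. Over all cells the interval of the observed number lay above the expected number for 15 of 15 pairs. Among all partner genes this was so for 2.28% (*Klrb1c*) to 6.03% (*Klrc1*) of 11182 genes found in at least 20 cells, with 5.8% for *Klrd1*, 4.6% for *Klrk1*, 2.33% for *Tyrobp* and 3.6% for *Fcer1g*. The Poisson intervals took no account of the limit that the number of cells with each gene sets on the overlap. For genes found in many cells they are too wide, so an interval that includes the expected number does not show independence. The expected numbers over all cells took no account of lineage. Counts within CD8+ cells are therefore given for the pairs as a whole, for the main pairs and for most gene lists. Where they are not given, a call over all cells was not separated from lineage.

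The CD94 and NKG2A transcripts were both present in 1382 cells against 858 expected, a ratio of 1.61. Of the cells with *Klrc1*, 65.1% had *Klrd1*, and of those with *Klrd1*, 43.4% had *Klrc1*. Within CD8+ cells the pair was at 1112 against 996, a ratio of 1.12. By library, 70, 14, 38, 475, 475 and 310 cells had both, against 39.7, 7.0, 16.5, 284, 308 and 203 expected, so the observed number was higher in each library. *Klrc1* and *Klrk1* were both present in 800 cells against 424 expected (1.89), and in 649 CD8+ cells against 513 (1.27). *Klrd1* and *Klrk1* had 870 against 518 (1.68), and 685 against 606 within CD8+ cells. In CD4+ Tconv cells 3 of 15 pairs were above expectation, namely these receptor pairs, with 44 cells against 12.7 for *Klrd1* and *Klrc1*. Of all partner genes in CD4+ Tconv cells, 1.63% were above with *Klrd1*, 1.55% with *Klrc1*, 1.59% with *Klrk1*, 0.0661% with *Klrb1c*, 0.489% with *Tyrobp* and 0.383% with *Fcer1g*.

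Pairs among the 3 sparse members had the highest ratios, but also the highest ceilings. Without libraries and depth bins, a ratio with *Klrd1* over all cells could not exceed 4.03, against 129 with *Tyrobp*. With the bins used here the limits differ from these and also depend on the partner. These pairs were therefore not ranked against those of the abundant receptors. *Tyrobp* and *Fcer1g* were both present in 51 cells against 3.29 expected, a ratio of 15.5, and 51.5% of *Tyrobp* cells had *Fcer1g* while 21.4% of *Fcer1g* cells had *Tyrobp*. The pair was found in every library, in 15, 2, 12, 12, 7 and 3 cells. *Klrb1c* and *Fcer1g* had 49 cells against 3.54, a ratio of 13.9, and *Klrb1c* and *Tyrobp* 23 against 1.81, a ratio of 12.7, with 5 against 0.781 within CD8+ cells. Within CD8+ cells, *Klrb1c* and *Fcer1g* were at 13 against 1.27 and *Tyrobp* and *Fcer1g* at 11 against 0.98, so these pairs were above expectation within the lineage as well. In all, 7 of 15 pairs were above expectation in CD8+ cells, with ratios from 1.09 to 11.2. Of partner genes in CD8+ cells, 0.151% were above with *Klrd1*, 0.685% with *Klrc1*, 0.857% with *Klrk1*, 1.39% with *Klrb1c*, 1.33% with *Tyrobp* and 2.0% with *Fcer1g*. In ungated cells 15 of 15 were above, with ratios from 2.77 to 13.1, beside 3.37%, 3.32%, 2.73%, 2.45%, 2.32% and 3.5% of partner genes for *Klrd1*, *Klrc1*, *Klrk1*, *Klrb1c*, *Tyrobp* and *Fcer1g*.

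**Figure D3:**
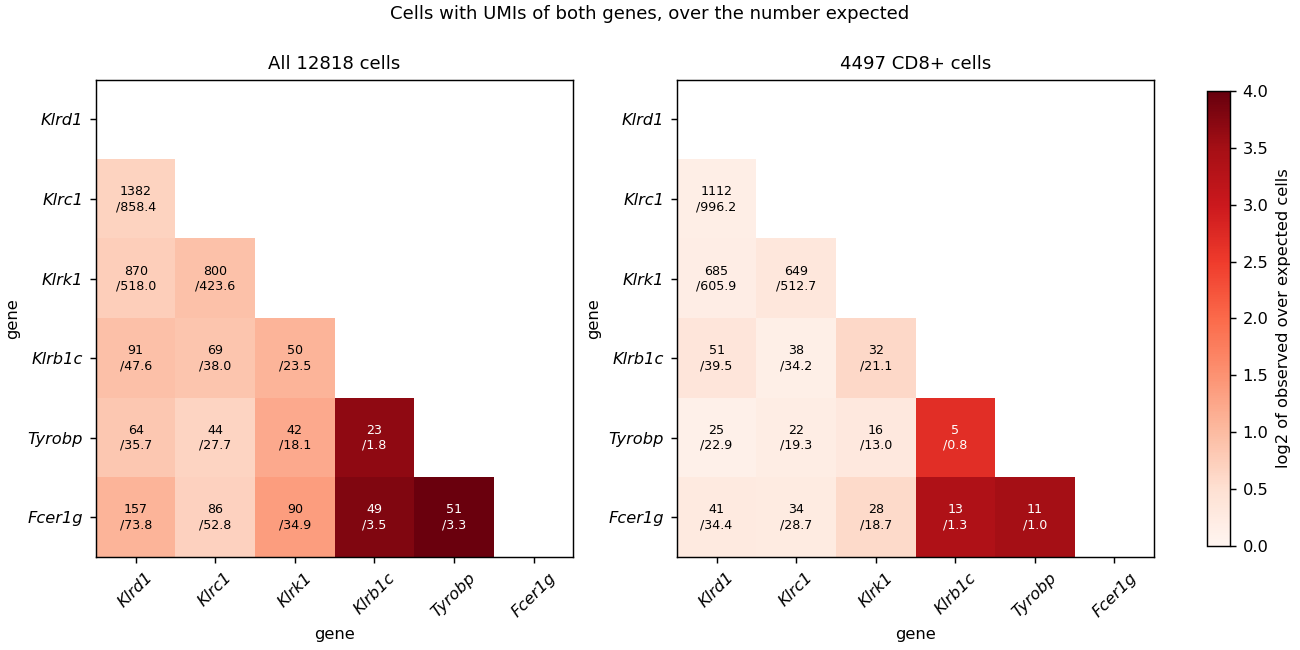
Cells with UMIs of both genes over the number expected within library and depth bin, for each pair of members, in all 12818 cells (left) and in the 4497 CD8+ cells (right). Color gives the log2 ratio and the printed numbers are observed and expected cells. The block of *Klrb1c*, *Tyrobp* and *Fcer1g* was darkest in both panels, and the pairs of *Klrd1*, *Klrc1* and *Klrk1* paled within CD8+ cells. The highest possible ratio falls as a gene becomes more common (4.03 with *Klrd1* over all cells without libraries and depth bins), so color was not compared between members of unlike abundance.

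Counting members per cell, 8583 cells had none, 2244 had 1, 1259 had 2, 637 had 3, 68 had 4, 23 had 5 and 4 had 6. At least 3 members were found in 732 cells against 272 expected, a ratio of 2.69 [2.50–2.89]. Within CD8+ cells 555 were observed against 409 expected, a ratio of 1.36, and within ungated cells 138 against 16.6, a ratio of 8.32. The gate of the cells changed with the number of members. CD8+ cells made up 79.4% of those with 3 members, 47.8% of those with 5 (11 of 23) and 0 of the 4 cells with 6, all of which were ungated. Of 85 cells with at least 2 of *Klrb1c*, *Tyrobp* and *Fcer1g*, 74.1% were ungated, 24.7% CD8+ and 0 CD4+ Tconv. Of 3873 cells with *Klrd1*, *Klrc1* or *Klrk1* and none of the sparse 3, 68.7% were CD8+ and 23.3% ungated.

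**Figure D4:**
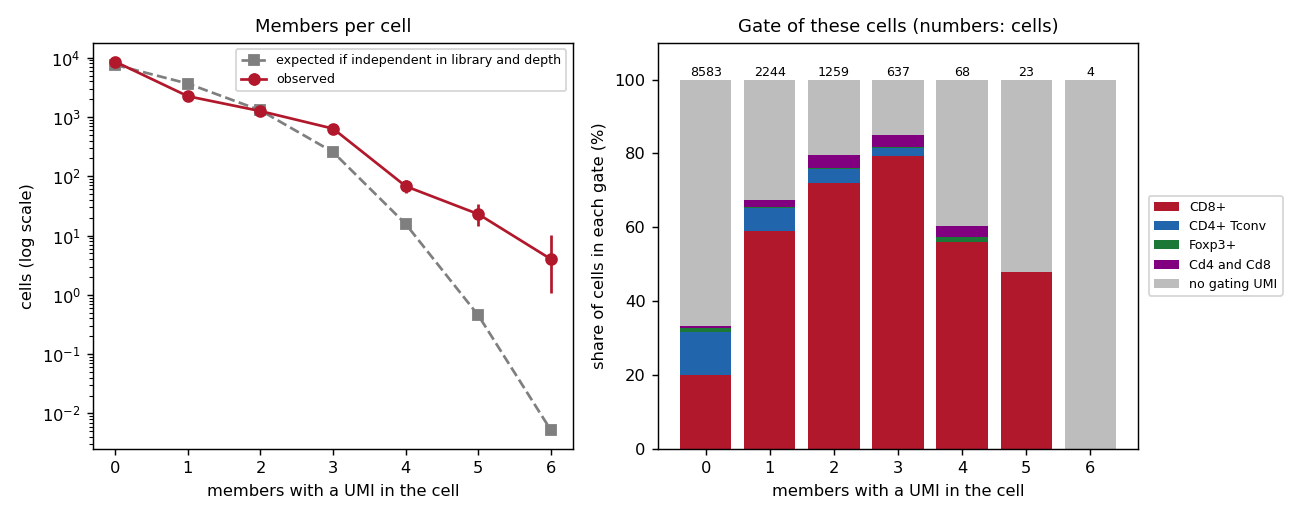
Left, number of cells (y axis, log scale) by how many of the 6 members had a UMI (x axis), observed with 95% Poisson intervals in red and expected within library and depth bin in gray. Right, gates of these cells (y axis, percent) with the number of cells above each bar. Observed cells exceeded expected ones from 3 members upward, and the ungated share was largest among cells with 6 members.

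Most member cells held T cell receptor or CD3 transcripts. A UMI of *Cd3d*, *Cd3e*, *Cd3g*, *Trac*, *Trbc1* or *Trbc2* was present in 98.5% of *Klrd1*, 99.1% of *Klrc1*, 99.2% of *Klrk1*, 96.9% of *Klrb1c*, 98.0% of *Tyrobp* and 96.6% of *Fcer1g* cells, against 95.4% of all cells. For *Fcer1g*, 230 cells had such a UMI against 229 expected at their depth, and of the 85 cells with at least 2 of the sparse members 83 had one against 83.0. Nearly all cells had such a UMI, so these numbers could hardly exceed the expected ones. The set includes CD3 genes and does not identify αβ T cells. Of the pairs of a member with one of these genes, *Klrd1* with *Trbc2* alone was above expectation (1780 cells against 1697) and 0 were below. These genes were found in many cells, where the Poisson interval is too wide to show independence.

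NK cell markers accompanied the adaptors, and the receptor genes as well. The cells were sorted for TCRβ, which NK cells and γδ T cells lack, and the purity of the sort was not tested here. *Ncr1*, which encodes NKp46, was found in 12 cells of the pool, 11 of them with *Fcer1g* (0.46 expected). Of the 12, 11 had a UMI of a T cell receptor or CD3 gene. The 6 measured genes of the NK list were found in 360 cells, at 0.0723 (library 2) to 0.355 (library 5) summed UMIs per 10000, and 95 of these cells had *Tyrobp* or *Fcer1g*. *Klre1* alone was in 270 cells, 193 of them CD8+. The 3 NK list genes in at least 20 cells also belong to the receptor list below. All 3 were above expectation with each member except *Klrk1*, with which 2 were. Within CD8+ cells 2 NK list genes were in at least 20 cells. Of these, 2 were above with *Klrb1c* and with *Fcer1g*, and 1 with each other member. Markers of other types were found as well. Of 11 myeloid markers 3 were measured, in 217 cells and at 0.047 to 0.168 UMIs per 10000, with 10 of these cells holding *Tyrobp* or *Fcer1g*. *Cd68*, a macrophage gene, was found in 96 *Klrd1* cells against 61.2 and in 6 *Tyrobp* cells against 2.11, and in 2 *Fcer1g* cells against 4.01. The other 8, which include *Lyz2* and the *C1q* genes, were not analysed here. Within CD8+ cells 0 of 2 myeloid genes in at least 20 cells were above with any member. The γδ T cell list (6 of 9 genes) was found in 259 cells, the NKT list (2 of 3 genes) in 37, 23 of them in library 1, the B cell list (2 of 4 genes) in 170, the melanoma list in 18 and the mast cell and basophil list (1 of 4 genes) in 2. *Tcrg-C4*, a γ chain constant gene, was found with *Fcer1g* in 13 cells against 2.11 and with *Klrb1c* in 8 against 1.06. It was the only 1 of 5 γδ list genes in at least 20 cells above expectation with either member, and 0 were above with *Tyrobp*. Within CD8+ cells 1 of 2 γδ list genes was above with *Fcer1g* and 0 with each other member. The part of NK, NKT or γδ T cells in the *Fcer1g* and *Tyrobp* cells was not tested.

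Other killer cell lectin-like receptors followed the members. Of 24 listed genes 16 were measured and 9 were in at least 20 cells, and of these 9 the number above expectation was 6 for *Klrd1*, 7 for *Klrc1*, 6 for *Klrk1*, 7 for *Klrb1c*, 6 for *Tyrobp* and 7 for *Fcer1g*, with 0 below. Within CD8+ cells, where 6 of the listed genes were in at least 20 cells, 1, 2, 2, 3, 2 and 3 were above in the same order of members. *Klre1*, whose product forms receptors at the NK cell surface, was found in 201 *Klrd1* cells against 111 expected, 190 *Klrc1* cells against 92.1 and 45 *Fcer1g* cells against 7.19. *Klra7*, a Ly49 receptor gene, was found in 46 *Fcer1g* cells against 2.73, 21 *Klrb1c* cells against 1.37 and 53 *Klrd1* cells against 27.6. *Klrc2*, the activating relative of *Klrc1*, was found in 112 *Klrc1* cells against 55.1. Within CD8+ cells *Klre1* stayed above expectation with *Klrc1* (150 against 109) and *Fcer1g* (10 against 3.79), and *Klra7* with *Fcer1g* (13 against 0.768) but not with *Klrc1* (14 against 12.0). *Klrg1*, a marker of short-lived effector cells, was near expectation with *Klrd1* (213 against 189) and was found in 9 *Fcer1g* cells against 15.7. Reads of the *Klra*, *Klrb1* and *Klrc* genes can be shared between near-identical copies, so these assignments are uncertain, those of *Klrc1* and *Klrb1c* included.

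Fewer adaptors and kinases of the T cell pathway were above expectation than other receptor genes. Many of them were found in far more cells, which lowers the highest possible ratio, so the lists were not ranked. *Hcst*, the NKG2D adaptor gene, was found in 8594 cells and met *Klrk1* in 1166 cells against 1110 expected. The Poisson interval included the expected number, as it did with each other member. For a gene found in this many cells that interval is too wide to show independence. *Lat*, the T cell receptor scaffold, was found in 95 *Fcer1g* cells against 149 and in 50 *Tyrobp* cells against 68.3, both below expectation, whereas *Lat2*, a related scaffold of Fc receptor signaling, was found in 21 *Fcer1g* cells against 3.17 and 8 *Tyrobp* cells against 1.43. *Zap70* (65 against 57.8) and *Cd247* (69 against 70.7) were near expectation with *Fcer1g*, and *Syk* was found in 3 cells of the pool. Of 17 genes of this list in at least 20 cells, 5 were above and 1 below for *Klrd1*, 6 and 0 for *Klrc1*, 4 and 0 for *Klrk1*, 1 and 0 for *Klrb1c*, 1 and 1 for *Tyrobp* and 2 and 1 for *Fcer1g*. Within CD8+ cells 1 was above for *Klrc1*, 2 for *Fcer1g* and 0 for the other members. Those above with *Klrd1* included *Sh2d1a*, the SAP adaptor of SLAM receptors (923 against 824), and *Ptpn6*, the SHP-1 phosphatase that ITIM receptors recruit (494 against 427). Among ligands, 1 of 7 was above for each member. This was *Clec2d*, a ligand of NKR-P1 receptors, for the 3 abundant receptor genes (1266 against 1090 with *Klrd1*) and *Ulbp1*, an NKG2D ligand gene, for the 3 sparse members (11 against 4.18 with *Fcer1g*), and within CD8+ cells 0 of 6 was above for any member. *H2-T23*, which encodes Qa-1, met *Klrc1* in 1049 cells against 1061.

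Cytotoxic genes accompanied the receptors. All 11 listed genes were above expectation with *Klrd1*, *Klrc1* and *Klrk1*, 8 with *Klrb1c*, 7 with *Tyrobp* and 7 with *Fcer1g*. Within CD8+ cells the counts were 2 with *Klrd1*, 6 with *Klrc1*, 3 with *Klrk1*, 0 with *Klrb1c*, 0 with *Tyrobp* and 1 with *Fcer1g*. *Gzma*, encoding granzyme A, was found in 1303 *Klrc1* cells against 830 over all cells and in 1098 against 979 within CD8+ cells. *Gzmk* was found in 880 *Klrd1* cells against 606 and, below expectation, in 26 *Fcer1g* cells against 40.4. Inhibitory receptors were above for 5 of 7 with *Klrd1*, 6 of 7 with *Klrc1* and 3 of 7 with *Klrk1*, including *Cd160* (408 *Klrc1* cells against 273) and *Havcr2*, encoding TIM-3 (346 against 259, and 277 against 236 within CD8+ cells). Within CD8+ cells 0 of 7 were above with *Klrd1*, 1 with *Klrc1* and 0 with *Klrk1*. With *Fcer1g*, *Cd160* (63 against 23.2) and *Cd244a* (14 against 2.20) were above, *Ctla4* was below (46 against 62.6) and *Pdcd1*, encoding PD-1, was at 35 against 41.5, with an interval that included the expected number.

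Transcription factors divided the members. *Tbx21* and *Eomes*, which direct cytotoxic differentiation, were above expectation with *Klrd1* (386 against 321 and 232 against 165), *Klrc1*, *Klrk1* and *Klrb1c* over all cells, and with none of these within CD8+ cells (298 against 288 and 191 against 195 with *Klrd1*). *Ikzf2*, encoding Helios, was above with the sparse members, in 88 *Fcer1g* cells against 32.0, 38 *Klrb1c* cells against 16.4 and 28 *Tyrobp* cells against 13.5, and was near expectation with *Klrd1* (398 against 382). *Gata3* was below with 5 members and at 17 against 25.0 with *Tyrobp*. *Tcf7*, encoding TCF-1, was below with *Klrc1* (216 against 268) and *Klrk1* (150 against 178) but not with *Klrd1* (501 against 503). *Igfbp4*, a naive cell gene, was found in 105 *Klrd1* cells against 156, 11 *Klrc1* cells against 41.3 and 4 *Klrk1* cells against 34.2. Among the 4 listed naive genes it was the only 1 below expectation with each of these members, and 1 was above with *Klrd1*. Within CD8+ cells 1 of the 4 was below with each of these members and 0 were above. Of 10 listed factors in at least 20 CD8+ cells, 1 was above with *Klrb1c*, 1 with *Fcer1g* and 0 with each other member. With *Klrc1*, 1 factor was below.

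Genes of CD4 effector cells lay on the other side. The share of all genes below expectation was 4.47% with *Klrd1*, 3.16% with *Klrc1*, 2.46% with *Klrk1*, 0.733% with *Klrb1c*, 0.599% with *Tyrobp* and 1.47% with *Fcer1g*. Of 7 listed genes, 7 were below with *Klrd1*, 6 with *Klrc1*, 6 with *Klrk1*, 2 with *Klrb1c*, 2 with *Tyrobp* and 3 with *Fcer1g*. Within CD8+ cells, of 5 genes in at least 20 cells, 1 was below with *Klrd1*, 2 with *Klrc1*, 1 with *Klrk1* and 0 with the others. *Il4* was found in 47 *Klrd1* cells against 185, *Cd40lg*, the CD40 ligand gene, in 387 against 802 and *Tnfrsf4*, encoding OX40, in 441 against 875. For the sparse members *Tnfrsf4* was at 27 against 59.9 (*Fcer1g*), 12 against 38.7 (*Klrb1c*) and 11 against 28.1 (*Tyrobp*). Within CD8+ cells *Cd40lg* remained below with *Klrd1* (144 against 186) and *Klrc1* (125 against 155). In CD8+ cells, 0.0907%, 0.202%, 0.202%, 0.111%, 0.121% and 0.151% of all genes were below with *Klrd1*, *Klrc1*, *Klrk1*, *Klrb1c*, *Tyrobp* and *Fcer1g*. Over all cells, of 5 cycling genes, 4 were below with *Klrd1* and 0 with each other member. Within CD8+ cells 1 was below with *Klrd1* and 0 with each other member.

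**Figure D5:**
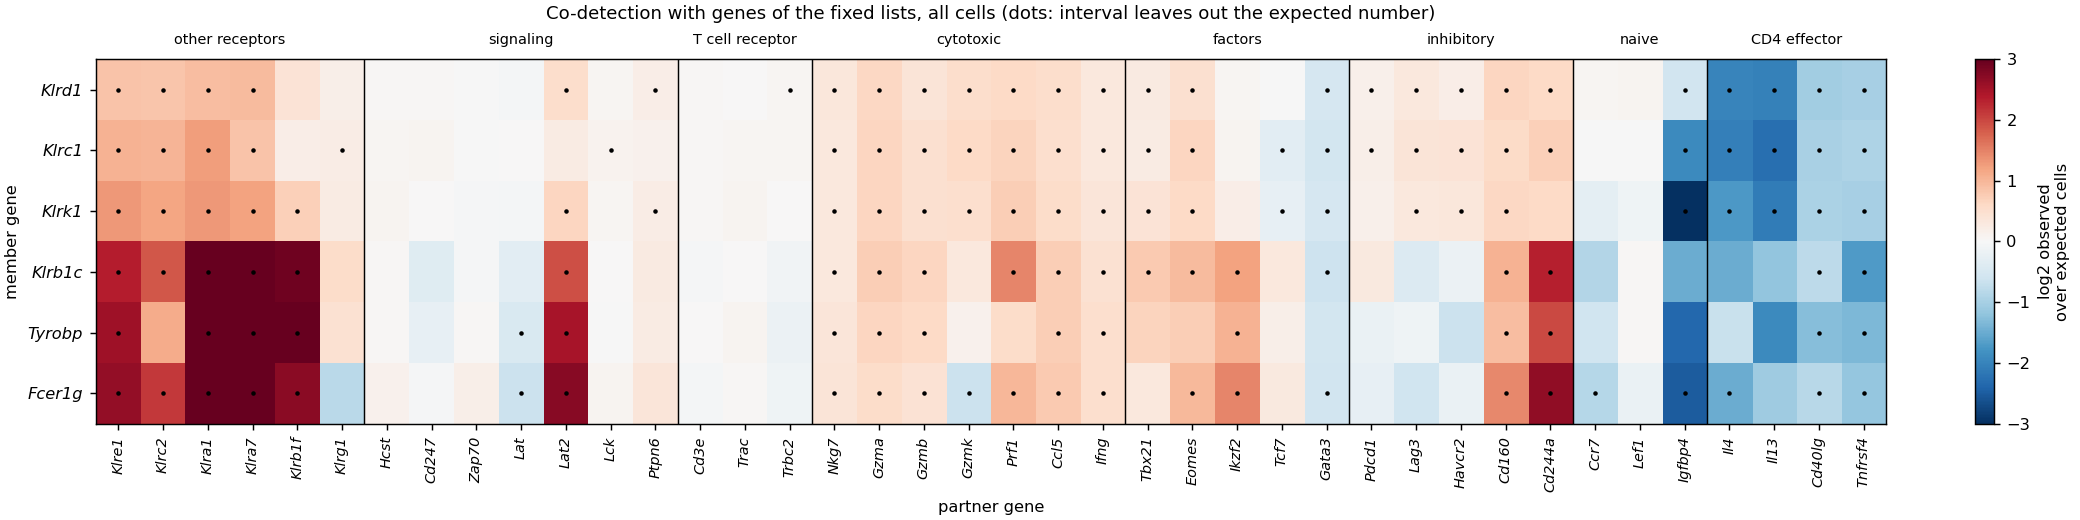
Log2 of observed over expected cells for each member (rows) with genes of the fixed lists (columns), over all cells. Red is above and blue below expectation, values are clipped at 3, and dots mark pairs whose 95% interval leaves out the expected number. Cytotoxic genes were red for *Klrd1*, *Klrc1* and *Klrk1*, *Klra1*, *Klra7*, *Lat2* and *Ikzf2* were reddest for *Klrb1c*, *Tyrobp* and *Fcer1g*, and CD4 effector genes were blue.

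The cells with CD94 transcript differed by whether NKG2A transcript was found with it. Of 1382 cells with *Klrd1* and *Klrc1*, 80.5% were CD8+, and *Gzma* was found in 982 against 594 expected. Of 1802 cells with *Klrd1* and no *Klrc1* UMI, 60.7% were CD8+, *Gzma* was found in 523 against 391 and *Ccr7*, a lymphoid homing receptor, in 295 against 304, and 99 were naive-gated. Of 741 cells with *Klrc1* and no *Klrd1* UMI, 61.4% were CD8+ and 0 were naive-gated. Median depth was 2733.5, 1552 and 1809 UMIs in these 3 sets, and the CD8+ shares were not matched for depth or library. The part of depth in these shares and in the missing partner UMIs was not tested.

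The genes most like each member were named by the highest co-detection ratio among genes in at least 100 cells, with at least 20 cells holding both and a ratio above 1 in each library where at least 2 were expected. No library expected 2 cells for 7 of the pairs named here (*Fcer1g* with *Klrb1c* in both directions, *Tyrobp* with *Fcer1g*, *Klrb1c* and *Klre1*, and *Fcer1g* with *Atp1b1* and *Klrc2*), so the condition on libraries had no bearing on them. For *Klrd1* these were *Fcer1g* (2.13), *Klrb1c* (1.91), *Klre1* (1.82), *Klrc2* (1.77) and *Itgax*, the CD11c gene (314 cells against 181). For *Klrc1* they were *Klre1* (2.06), *Klrc2* (2.03), *Samd3* (79 cells against 41.7), *Klrk1* (1.89) and *Itgax* (281 against 152). *Klrk1* had *Fcer1g* (2.58), *Klre1* (2.45), *Klrc2* (2.29), *Klrb1c* (2.13) and *Samd3* (54 against 25.7). Those of the sparse members overlapped. *Xcl1*, the gene of a chemokine for cross-presenting dendritic cells, was named for all 3, with 113 *Fcer1g* cells against 20.8, 45 *Klrb1c* cells against 11.0 and 39 *Tyrobp* cells against 9.14. *Klre1* was named for all 3 as well, at 6.26, 5.12 and 5.81. *Fcer1g* also had *Klrb1c* (13.9), *Atp1b1*, a sodium pump subunit gene (24 against 3.50), and *Klrc2* (4.36), *Klrb1c* had *Fcer1g*, *Ikzf2* (2.32) and *Klrk1* (2.13), and *Tyrobp* had *Fcer1g* (15.5), *Klrb1c* (12.7) and *Klrk1* (2.33). Without libraries and depth bins, a ratio for a gene as common as *Klrd1* could not exceed 4.03, against 129 for *Tyrobp*. Ratios were therefore not compared between members of unlike abundance.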

How the data were processed

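The authors deposited 1 merged table of UMI counts, whole numbers with no normalization, with genes in rows and cells in columns. According to the study's methods, 5′ droplet libraries were mapped to mm10 and merged with Cell Ranger, and cells were filtered in Seurat. The labels' processing notes name mm9 in place of mm10. The table was analysed with Python 3.11.15, numpy 2.4.6, scipy 1.17.1, pandas 2.3.3 and matplotlib 3.10.9. Gates required at least 1 UMI. Totals were 1916305 to 5127776 UMIs per library. Expected numbers were computed within each library and 5 depth bins (quantiles of total UMIs), and a call means that the exact 95% interval leaves out the expected number or that a ratio passes 2-fold. No p-value was computed, because cells are not replicates and no library could be placed in a group. The scripts were tested on simulated data. Doublets were not removed here. The members and gene lists were chosen with earlier results of these data known. The text names members, genes of the lists, and the 5 genes with the highest co-detection ratio per member. Cytokine-gated cells, the lineage split of naive-gated cells, a naive gate that leaves out 1 gene not reported here, comparisons of ungated cells, co-detection within a gate other than CD8+ or CD4+ Tconv, counts of list genes within CD8+ cells, and sets of cells by members held were added after the data were seen.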

Additional observations from a re-analysis of the deposited data

How the results depend on the processing

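The shares depended on depth. With cells thinned to 500 UMIs, CD8+ shares were 21.9% for Klrd1, 13.4% for Klrc1, 6.96% for Klrk1, 0.270% for Klrb1c, 0.158% for Tyrobp and 0.315% for Fcer1g, and at 1000 UMIs 36.5%, 24.0%, 11.8%, 0.830%, 0.482% and 0.643%. At 1500 UMIs Klrc1 was at 36.4% and Klrk1 at 19.2%. With at least 2 UMIs required, the shares were 27.9%, 19.2%, 7.94%, 0.289%, 0.0889% and 0.600% in the same gene order. Leaving out each library in turn, they ran from 44.3% to 54.5%, 28.7% to 42.7%, 16.2% to 25.8%, 0.744% to 1.63%, 0.436% to 0.914% and 0.954% to 1.47%.

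The CD8+ to CD4+ Tconv ratio stayed above 1 for all 6 members under every alternative run. From summed UMIs it was 7.92 for Klrd1 and 6.77 for Klrc1. Without 1 library it ran from 4.82 to 5.58 (Klrd1), 4.85 to 5.22 (Klrc1), 4.76 to 6.90 (Klrk1), 5.70 to 11.9 (Klrb1c), 2.27 to 10.5 (Tyrobp) and 3.21 to 5.29 (Fcer1g). With no filter on low values, 2058 genes were at least 2-fold more often found in CD8+ cells, against 416. Without library 1, the Foxp3+ to CD4+ Tconv ratio changed side for Klrd1 (1.29, with 0.734 without library 2), Klrc1 (0.994, with 1.94 without library 3) and Klrk1 (0.00, with 2.03 without library 3).

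Without depth bins, ratios were 1.83 for Klrd1 with Klrc1, 2.22 for Klrc1 with Klrk1, 22.7 for Tyrobp with Fcer1g and 3.77 for cells with 3 or more members. With cells thinned to 1000 UMIs, they were 1.76, 2.15 and 21.1 for these pairs and 18.7 for Klrb1c with Fcer1g. In CD8+ cells only, the 4 pairs were at 1.12, 1.27, 11.2 and 10.2. Without 1 library they ran from 1.58 to 1.65, 1.84 to 1.94, 14.2 to 18.7 and 13.5 to 14.5, and cells with 3 or more members from 2.60 to 2.86. With 10 depth bins, 11 of 11 ratios moved by less than their intervals. The cause of these shifts, beyond the depth that thinning itself sets, was not tested.

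No paired analysis was possible because the labels number the samples but the cells carry no sample, so a replicate block had nothing to act on. Depth limits the sparse members, which rest on 99 to 238 cells in the pool. Differences between libraries cannot be told apart from treatment, animal or handling.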
